A study of Mus musculus with 13 samples.

Results

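Mitochondrial complex I (NADH:ubiquinone oxidoreductase) is assembled from subunits encoded in the nucleus and in the mitochondrial genome, and the genes described here are the nuclear ones. They were taken as every entry of the count table whose symbol is Nduf followed by a, b, c, s or v and a number, which gave 37 of 12009 genes. Of these 37 members, 7 encode core subunits and 28 encode accessory subunits. *Ndufa4* and *Ndufa4l2* have matching symbols but are not counted as complex I subunits in current nomenclature. *Ndufab1*, an acyl carrier protein that is also part of the complex, has a symbol that does not match and is given only for comparison.

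The RNA came from mice that carried *Slc6a2*-*eGFP*/*Rpl10a*, a hemizygous transgene in which the promoter of *Slc6a2* (the norepinephrine transporter, NET) drives an EGFP-tagged ribosomal protein, so that translating ribosome affinity purification (TRAP) pulls down ribosome-bound mRNA of noradrenergic neurons from a hindbrain homogenate. The hindbrain was taken without the cerebellum, and each replicate pooled 2 mice of 1 sex and 1 treatment, 6 to 8 months old. DSP-4, a neurotoxin taken up through NET that damages noradrenergic axons, was injected at 50 mg/kg on days 1 and 7, controls received saline (0.9% NaCl) on the same days, and TRAP followed on day 14. There were 6 DSP-4 TRAP libraries (replicates 1, 2, 3, 7, 8 and 9), 3 saline TRAP libraries (replicates 4, 6 and 12), 2 DSP-4 input libraries (replicates 2 and 7) and 2 saline input libraries (replicates 5 and 12), input being RNA of the whole homogenate. All mice of every group carried the transgene, and NET is expressed by noradrenergic cell groups of the hindbrain beyond the locus coeruleus.

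Complex I takes electrons from NADH, passes them along a flavin and a chain of iron-sulfur clusters to ubiquinone, and pumps protons across the inner mitochondrial membrane. Its peripheral arm, in the matrix, holds the nuclear-encoded core subunits, and its membrane arm is built around core subunits encoded by mitochondrial DNA. The accessory subunits surround both arms and serve in assembly and stability. Neurons rely on oxidative phosphorylation for much of their ATP, and noradrenergic neurons, with long branched axons, are often discussed as being sensitive to failure of the respiratory chain.

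The libraries held 17491357 to 29199550 counts. Summed over 6 noradrenergic markers, the level, in CPM (counts scaled to a common library total with edgeR's TMM factors), was 286 to 461 CPM in DSP-4 TRAP and 571 to 666 CPM in saline TRAP, against 75.1 to 93.8 CPM in DSP-4 input and 109 to 111 CPM in saline input. All 6 markers were detected in every library. In these bulk samples fewer tagged neurons, less RNA per neuron and less tag per neuron cannot be told apart, the tag being driven by the *Slc6a2* promoter. By TH or Nissl staining of other mice, the study found no difference in the number of locus coeruleus neurons. Markers of oligodendrocytes, summed over 5 genes, ran from 4473 to 10926 CPM in DSP-4 TRAP and from 5516 to 5688 CPM in saline TRAP. They ran from 6039 to 6608 CPM in DSP-4 input and 6231 to 6889 CPM in saline input, so RNA of other cells was also present after TRAP. The 10926 CPM was that of DSP-4 TRAP replicate 2, and the next highest of that group was 6378 CPM in replicate 3. Astrocyte markers, over 5 genes, were higher in TRAP (864 to 1553 CPM with DSP-4, 1109 to 1293 CPM with saline) than in input (692 to 746 and 689 to 738 CPM). Microglia markers ran from 126 to 134 CPM in saline TRAP and 143 to 171 CPM in saline input. TRAP over input therefore does not set noradrenergic neurons alone against other cells, and the part of these cells in the results was not tested. Pituitary hormone genes, summed over 3 genes, ran from 6.87 to 489.6 CPM in DSP-4 TRAP and from 16.1 to 39.4 CPM in saline TRAP, and their part in the results was not tested. DSP-4 TRAP replicates 2 and 3 stood apart, with 20 and 22 genes at a count of 0 against 0 to 6 in every other library.

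All 37 members were detected in every library and all 37 were tested. Together they took 0.801% to 0.980% of the counts in DSP-4 TRAP libraries and 0.837% to 1.10% in saline TRAP libraries, against 0.960% to 1.15% in DSP-4 input and 0.954% to 1.14% in saline input. Per kilobase of annotated transcript, the highest level was that of *Ndufa4*, at 1111 CPM per kb in DSP-4 TRAP and 1264 CPM per kb in saline TRAP. Among the subunits proper, *Ndufb8*, in the membrane arm, came first, at 632 ± 76.7 CPM per kb in DSP-4 TRAP (SD, n = 6) and 792 ± 164 CPM per kb in saline TRAP (SD, n = 3). *Ndufs1*, *Ndufb2* and *Ndufs4* stood near the bottom of the order in input, where *Ndufs1* had 37.1 CPM per kb in DSP-4 mice and 48.2 CPM per kb in saline mice. *Ndufa4l2* was the lowest member in every group, at 8.99 CPM per kb in DSP-4 TRAP and 16.4 CPM per kb in saline TRAP. Most members have short transcripts. The median annotated transcript of the members was 908 bases, against 3073 bases over 11560 annotated genes, and 22 of the 37 members were under 1000 bases, against 6.31% of annotated genes. Core subunits had a median of 1623 bases and accessory subunits one of 748 bases.

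The first comparison asked how DSP-4 changed complex I transcripts on the tagged ribosomes. None of the 37 members passed an FDR of 0.1 in either direction. Over all genes 3 were lower (0.025%) and 0 were higher, and DESeq2 and limma called 0 of the members. Every member nevertheless had a negative log2 fold change for DSP-4 over saline, the lowest being -0.87, while 50% of all genes did, and the median was -0.22 over the members and -0.00 over all genes. At an unadjusted p under 0.05, 4 members were lower and 0 were higher, against a background of 151 genes lower (1.26%) and 75 higher. For 0 of the 37 members did all DSP-4 TRAP libraries lie below all saline TRAP libraries (0.566% of all genes did). With so small a share over all genes, a count of 0 does not set the members apart.

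The 4 members with the smallest p were *Ndufc1*, *Ndufa3*, *Ndufa2* and *Ndufa4l2*. *Ndufc1* (chromosome 3, 51404677 to 51408988, minus strand, GRCm38), a small subunit of the membrane arm, had 73.7, 113 and 121 CPM as the lowest, median and highest of the DSP-4 TRAP libraries, against 195, 169.5 and 97.8 CPM in saline TRAP replicates 4, 6 and 12. Saline replicates 4 and 6 lay above all 6 DSP-4 libraries, and saline replicate 12 lay among them. Its log2 fold change was -0.54 (SE 0.21, unadjusted p = 0.0239). *Ndufa3* (chromosome 7, 3617373 to 3620327, plus strand), another single-pass protein of the membrane arm, had 116, 150.4 and 175 CPM as the lowest, median and highest in DSP-4 TRAP, against 220.1, 257 and 126 CPM in saline TRAP replicates 4, 6 and 12, with a log2 fold change of -0.47 (SE 0.20, unadjusted p = 0.0359). The groups were arranged as for *Ndufc1*, with saline replicate 12 inside the DSP-4 range. *Ndufa2*, a thioredoxin-like subunit of the peripheral arm, had 194, 235 and 299 CPM as the lowest, median and highest in DSP-4 TRAP, against 310.3, 349 and 248 CPM in saline TRAP replicates 4, 6 and 12 (log2 fold change -0.37, SE 0.16, unadjusted p = 0.0398). No member had a positive log2 fold change, so none is named in that direction.

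**Figure D1:**
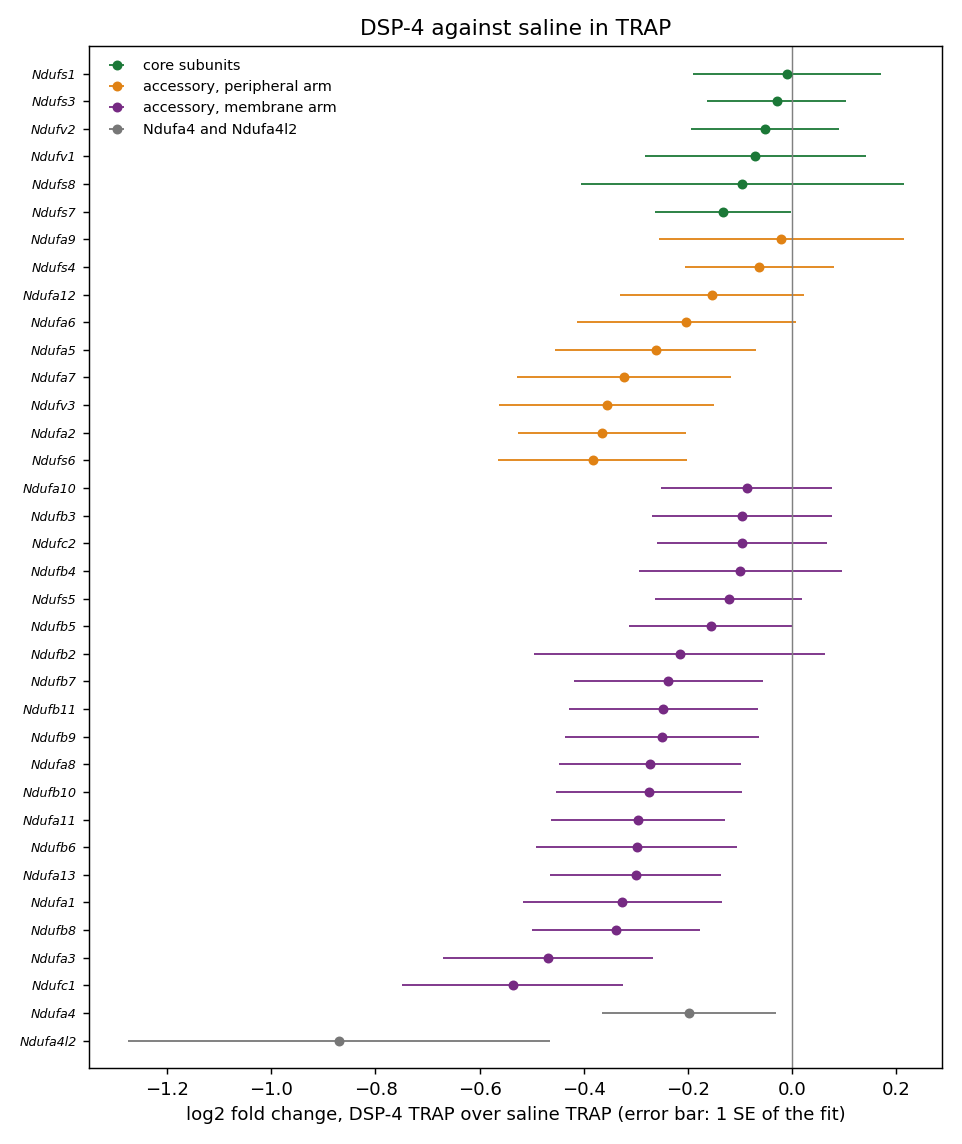
Log2 fold change of DSP-4 TRAP (6 libraries) over saline TRAP (3 libraries) for 36 of the 37 members, with 1 SE of the edgeR fit, grouped by place in the complex. All 36 points lie left of 0, the 6 core subunits shown between -0.13 and -0.0092, and none passed an FDR of 0.1.

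*Ndufv1* and *Ndufv2* with *Ndufs1* form the NADH-oxidizing module, and *Ndufs3*, *Ndufs7* and *Ndufs8* belong to the module that reduces ubiquinone. The sign of *Ndufs1*, *Ndufs3*, *Ndufs7*, *Ndufs8*, *Ndufv1* and *Ndufv2* changed in at least 1 alternative fit each. The log2 fold change of *Ndufs7* was -0.13, and the 7 core subunits had a median of -0.05, while the other 30 members had a median of -0.26. Accessory subunits of the peripheral arm (9 genes, median -0.26) and of the membrane arm (19 genes, median -0.25) did not differ by more than 0.02. *Ndufs8*, an iron-sulfur subunit, was variable, with 67.9, 178 and 257 CPM as the lowest, median and highest in DSP-4 TRAP, against 248, 132 and 174 CPM in saline TRAP. *Ndufs3* had 198 ± 19.3 CPM in DSP-4 TRAP and 201 ± 9.04 CPM in saline TRAP, *Ndufv1*, the flavin-binding subunit, had 239 ± 63.4 CPM in DSP-4 TRAP and 249.8 ± 36.9 CPM in saline TRAP, and *Ndufv2* had 508 ± 47.7 CPM in DSP-4 TRAP and 523 ± 66.7 CPM in saline TRAP (SD, n = 6 and n = 3). In each of them the group means lay within 1 SD of each other.

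A score was computed for each library as the mean over members of log2 CPM, each gene centred on its mean over the 13 libraries. The 37-gene score was -0.13, -0.36, -0.06, 0.03, -0.11 and -0.30 in DSP-4 TRAP replicates 1, 2, 3, 7, 8 and 9, against 0.26, 0.14 and -0.20 in saline TRAP replicates 4, 6 and 12. Only DSP-4 replicates 2 and 9 were below saline replicate 12, and saline replicates 4 and 6 were above all DSP-4 libraries. Saline replicate 12 was the lowest saline TRAP library for 31 of the 37 members, but for only 3 of the 7 core subunits. The score is a description and was not tested, because the members were chosen with earlier results known.

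**Figure D2:**
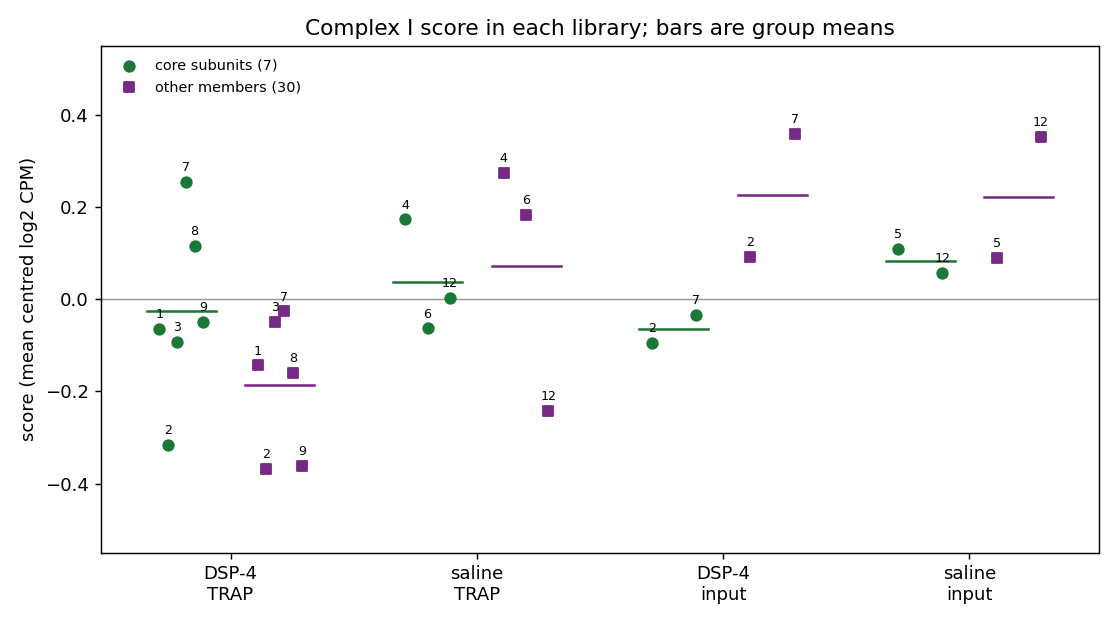
Mean centred log2 CPM of the 7 core subunits (circles) and of the other 30 members (squares) in each of the 13 libraries, numbered by replicate, with group means as bars. Saline TRAP replicate 12 sits at -0.24 for the other members, inside the DSP-4 TRAP range of -0.37 to -0.03, while saline replicates 4 and 6 sit at 0.27 and 0.18.

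The same libraries were low for short transcripts in general, taken as those of up to 1742 bases. Over the 2305 genes outside the list with the shortest annotated transcripts, the median centred log2 CPM was -0.10, -0.19, 0.05, -0.06, -0.19 and -0.25 in DSP-4 TRAP replicates 1, 2, 3, 7, 8 and 9, against 0.10, 0.03 and -0.25 in saline TRAP replicates 4, 6 and 12. The share of counts from mitochondrially encoded mRNAs was 0.530% in saline replicate 12, against 1.77% and 2.32% in saline replicates 4 and 6, and 0.537% to 2.64% in DSP-4 TRAP. For DSP-4 over saline these short genes had a median log2 fold change of -0.07, with 63.1% negative. With per-library offsets for GC content and length in the fit, 25 of the 37 members were negative and their median was -0.05. The part of transcript length and GC content in the shift of the members was not tested further.

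Leaving out saline TRAP replicate 12 moved the median of the members to -0.35, with 35 of 37 negative and 13 members lower at an unadjusted p under 0.05 (2.55% of all genes were), still with 0 past the FDR. Leaving out saline TRAP replicate 4 moved the median to -0.08, with 28 of 37 negative. The number of members lower at an unadjusted p under 0.05 was then 0, as it was without saline TRAP replicate 6, and it was 1 without DSP-4 TRAP replicate 8 or replicate 9, against 4 with all libraries. Without DSP-4 TRAP replicates 2 and 3, 32 of 37 were negative, the median was -0.18 and 10 members were lower at an unadjusted p under 0.05 (3.96% of all genes were).

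The promoters of 5 subunits are printed. *Ndufc1*, *Ndufa3*, *Ndufs6* and *Ndufb8* had the smallest p for DSP-4 over saline among subunits with a printable promoter. *Ndufs4* was higher in TRAP than in input in both treatments, a call lost with GC and length offsets. No member that was lower in TRAP in both treatments is printed. *Ndufa8* was such a member, and its promoter holds both NRF1 spellings given below but not AAGATGGC. The sequences are from RefSeq (build GRCm38.p6), 300 bases each, 5′ to 3′ on the strand of the gene, with base 251 as the annotated start. Capitals mark AAGATGGC, the core letters bound by the factor YY1. A RefSeq promoter was on hand for 32 of the 37 members, and *Ndufa2*, *Ndufa4l2*, *Ndufb9* and *Ndufs1* were among those without.
Ndufc1 (chr3:51408906-51409205, minus strand): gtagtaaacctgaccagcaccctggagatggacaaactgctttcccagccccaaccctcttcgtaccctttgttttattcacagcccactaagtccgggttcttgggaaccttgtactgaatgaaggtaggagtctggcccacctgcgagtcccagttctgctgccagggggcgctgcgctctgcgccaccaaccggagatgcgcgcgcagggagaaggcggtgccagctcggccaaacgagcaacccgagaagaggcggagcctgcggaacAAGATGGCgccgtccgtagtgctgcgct
Ndufa3 (chr7:3617123-3617422, plus strand): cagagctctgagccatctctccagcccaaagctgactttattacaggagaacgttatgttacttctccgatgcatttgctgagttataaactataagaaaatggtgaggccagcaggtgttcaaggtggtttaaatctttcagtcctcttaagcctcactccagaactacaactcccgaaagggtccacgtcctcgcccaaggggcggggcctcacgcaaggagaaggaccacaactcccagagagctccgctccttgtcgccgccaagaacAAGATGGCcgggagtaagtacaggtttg
Ndufs6 (chr13:73328433-73328732, minus strand): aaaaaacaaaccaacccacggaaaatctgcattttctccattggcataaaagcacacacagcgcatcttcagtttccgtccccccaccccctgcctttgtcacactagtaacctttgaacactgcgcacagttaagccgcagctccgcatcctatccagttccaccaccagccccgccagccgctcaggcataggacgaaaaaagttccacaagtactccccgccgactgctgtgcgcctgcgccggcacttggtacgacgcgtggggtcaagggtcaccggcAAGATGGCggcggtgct
Ndufb8 (chr19:44555393-44555692, minus strand): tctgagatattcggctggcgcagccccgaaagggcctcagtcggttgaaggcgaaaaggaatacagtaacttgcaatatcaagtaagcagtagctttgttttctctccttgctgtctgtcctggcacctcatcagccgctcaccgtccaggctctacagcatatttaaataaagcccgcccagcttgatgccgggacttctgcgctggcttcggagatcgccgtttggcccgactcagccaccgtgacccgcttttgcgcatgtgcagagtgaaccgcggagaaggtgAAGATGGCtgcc
Ndufs4 (chr13:114388045-114388344, minus strand): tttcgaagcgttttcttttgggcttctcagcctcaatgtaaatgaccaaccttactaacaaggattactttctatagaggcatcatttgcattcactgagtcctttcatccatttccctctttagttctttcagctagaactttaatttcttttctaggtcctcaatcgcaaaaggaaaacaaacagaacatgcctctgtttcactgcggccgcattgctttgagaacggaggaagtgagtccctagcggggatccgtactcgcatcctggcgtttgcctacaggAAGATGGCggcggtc

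AAGATGGC stood once in each of the 5 windows, on the strand of the gene and after the start, with its first base at position 273 in *Ndufc1* and *Ndufa3*, 284 in *Ndufs6*, 289 in *Ndufb8* and 286 in *Ndufs4*. Over both strands it was present in 7 of the 32 member promoters (21.9%), the others being those of *Ndufa9* and *Ndufs7*, against 3.19% of 27025 mouse promoters of the same length. The letters contain ATG and so can include a start codon. The other spellings searched on both strands were GCATGCGC (NRF1), in 3 member promoters (9.38%, against 3.05% of all), TGCGCATG (also NRF1, sharing letters with the one before), in 4 (12.5%, against 2.42%), CCGGAAGT (GABPA), in 1 (3.13%, against 4.31%), its first 7 letters CCGGAAG, in 4 (12.5%, against 9.93%), and TGACCTT (the estrogen-related receptors), in 3 (9.38%, against 5.38%). Of these only TGCGCATG stood in a printed window, in that of *Ndufb8* with its first base at position 256, where it did not overlap AAGATGGC. The motifs were chosen after the fold changes had been seen, a match is a run of letters and not a measured site, and no binding was measured here.

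The next comparison set TRAP against input within each treatment, which asks how much of the complex I mRNA on the tagged ribosomes differs from that of the whole hindbrain. In DSP-4 mice 2 of the 37 members were higher in TRAP (27.3% of all genes were) and 17 were lower (23.8% of all genes were), and the median log2 fold change was -0.41. In saline mice 3 members were higher (19.5% of all genes were) and 4 were lower (15.7% of all genes were), with a median of -0.24. The TRAP libraries of both treatments are those already used for DSP-4 over saline, so these comparisons share samples. *Ndufs1* and *Ndufs4* were higher and *Ndufv3*, *Ndufa8*, *Ndufa10* and *Ndufa12* were lower in both treatments.

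**Figure D3:**
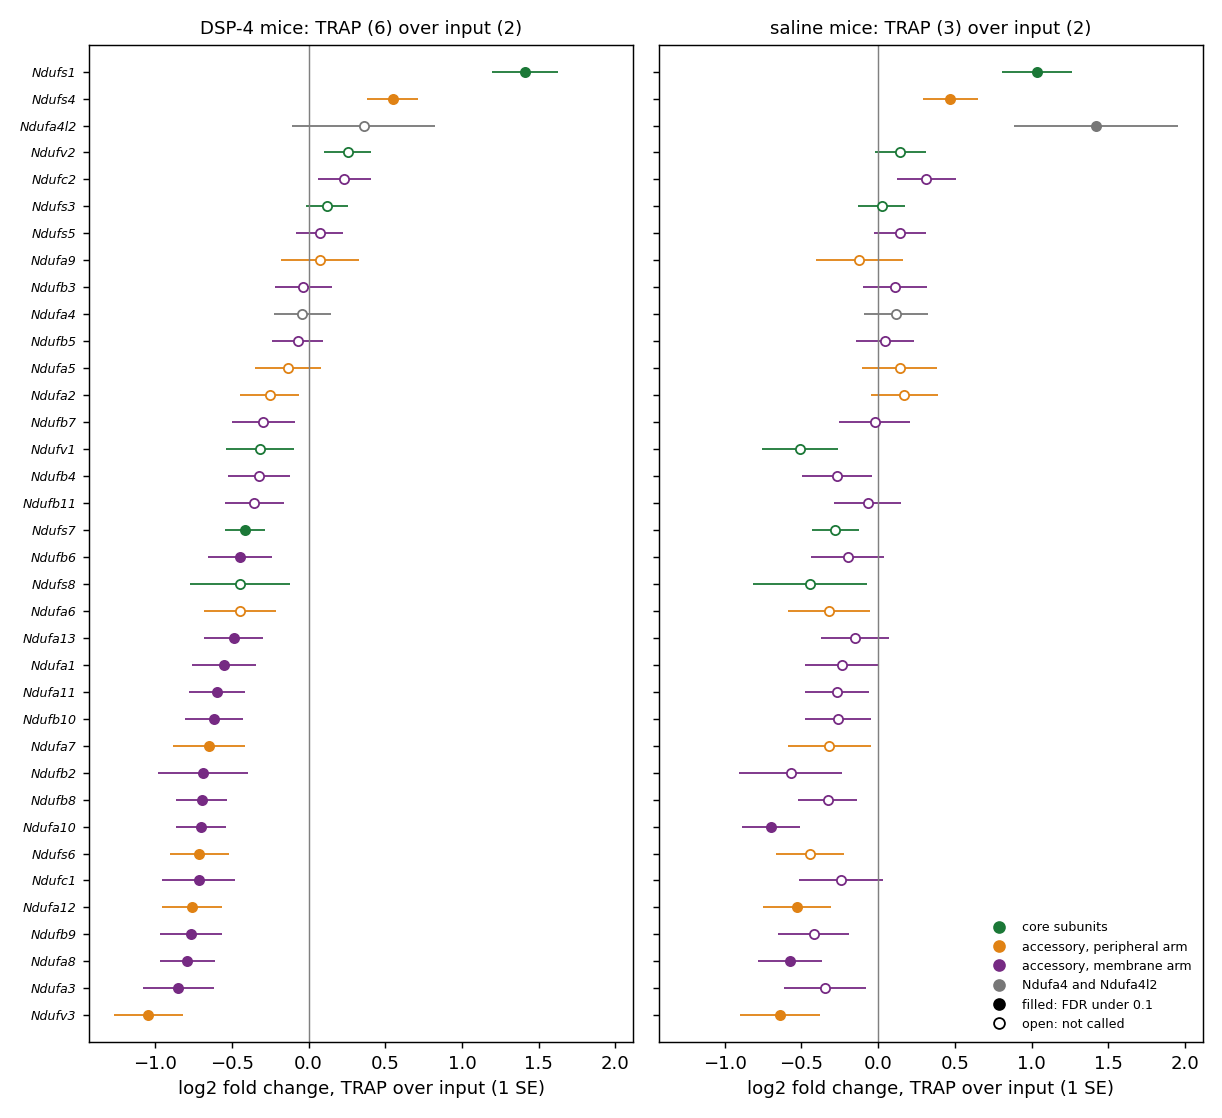
Log2 fold change of TRAP over input with 1 SE of the edgeR fit for 36 of the 37 members, in DSP-4 mice (left, 6 TRAP and 2 input libraries) and in saline mice (right, 3 TRAP and 2 input libraries), in the order of the left panel. Filled points passed an FDR of 0.1. *Ndufs1* stands furthest to the right among the subunits in both panels, at 1.41 and 1.04.

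*Ndufs1* (chromosome 1, 63143596 to 63176833, minus strand, GRCm38) encodes the largest core subunit, which holds several of the iron-sulfur clusters. It had 190.4, 266 and 322 CPM as the lowest, median and highest in DSP-4 TRAP, against 99.7 and 97.7 CPM in DSP-4 input, and 254, 228 and 307 CPM in saline TRAP replicates 4, 6 and 12, against 145 and 112 CPM in saline input. Every TRAP library was above every input library. The log2 fold change was 1.41 in DSP-4 mice (SE 0.22, adjusted p = 0.000109) and 1.04 in saline mice (SE 0.23, adjusted p = 0.00404). With GC and length offsets it was 1.03 (adjusted p = 0.000587) and 0.91 (adjusted p = 0.00469). With these offsets and TRAP paired with input by replicate number, it was 1.23 in saline mice. That saline value rests on 1 pair and was not called. DSP-4 and saline TRAP did not separate, with 262 ± 51.4 CPM (SD, n = 6) and 263 ± 40.1 CPM (SD, n = 3).

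*Ndufs4* (chromosome 13, 114287795 to 114388258, minus strand), an accessory subunit of the peripheral arm whose loss gives the mouse model of Leigh syndrome, had 197, 245 and 264 CPM as the lowest, median and highest in DSP-4 TRAP, against 149 and 173 CPM in DSP-4 input. In saline mice it had 262, 251 and 219.9 CPM in TRAP replicates 4, 6 and 12, against 155 and 197 CPM in input. TRAP and input did not overlap in either treatment. Its log2 fold change was 0.55 in DSP-4 mice (SE 0.16, adjusted p = 0.0134) and 0.47 in saline mice (SE 0.18, adjusted p = 0.064), and with GC and length offsets 0.04 (adjusted p = 0.907) and 0.27 (adjusted p = 0.399). In a fit with the replicate block, which pairs TRAP and input by replicate number, it was 0.62 (adjusted p = 0.16) in DSP-4 mice. In saline mice it was 0.17 in that fit, which rests there on 1 pair. The call in DSP-4 mice was lost in both fits, and that in saline mice was lost with GC and length offsets. *Ndufs1* and *Ndufs4* have transcripts of 2661 and 1698 bases with a GC content of 45.1% and 43.1%, against medians of 908 bases and 52.2% over the members.

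The lowest log2 fold change in DSP-4 mice was that of *Ndufv3* (chromosome 17, 31520115 to 31531331, plus strand), a small subunit beside the flavin-binding one. It had 62.6, 92.6 and 119 CPM as the lowest, median and highest in DSP-4 TRAP, against 166 and 223 CPM in DSP-4 input, and 141, 130.5 and 87.7 CPM in saline TRAP, against 158 and 215 CPM in saline input. All TRAP libraries were below all input libraries. The log2 fold change was -1.04 in DSP-4 mice (SE 0.22, adjusted p = 0.00154) and -0.64 in saline mice (SE 0.26, adjusted p = 0.0818). Both calls were lost with GC and length offsets, at -0.43 (adjusted p = 0.137) in DSP-4 mice and -0.14 (adjusted p = 0.735) in saline mice. *Ndufa10* (chromosome 1, 92439010 to 92473860, minus strand), an accessory subunit of the membrane arm related to nucleoside kinases, had 159, 209 and 235 CPM as the lowest, median and highest in DSP-4 TRAP, against 333 and 325 CPM in DSP-4 input, and 245, 202 and 194 CPM in saline TRAP, against 358 and 336 CPM in saline input. Its log2 fold change was -0.70 in DSP-4 mice (SE 0.16, adjusted p = 0.00287) and -0.70 in saline mice (SE 0.19, adjusted p = 0.0126). The call was lost with the replicate block in both treatments (adjusted p = 0.118 in DSP-4 mice and 0.343 in saline mice), and with GC and length offsets in saline mice (-0.40, adjusted p = 0.125).

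*Ndufa8*, a subunit on the intermembrane face, averaged 191 ± 32.2 CPM in DSP-4 TRAP (SD, n = 6) and 331 ± 37.8 CPM in DSP-4 input (SD, n = 2), with a log2 fold change of -0.79 in DSP-4 mice (adjusted p = 0.00243) and -0.57 in saline mice (adjusted p = 0.0533). Neither passed with GC and length offsets, at -0.20 (adjusted p = 0.236) in DSP-4 mice and -0.23 (adjusted p = 0.28) in saline mice. *Ndufa12*, a peripheral subunit put on late in assembly, had log2 fold changes of -0.76 in DSP-4 mice (adjusted p = 0.00502) and -0.53 in saline mice (adjusted p = 0.0907), the second of which was lost with GC and length offsets (-0.29, adjusted p = 0.246). *Ndufb8*, whose protein is a common marker of assembled complex I, was lower in DSP-4 mice (-0.70, adjusted p = 0.00342) and did not pass in saline mice (-0.33, adjusted p = 0.224). Its call in DSP-4 mice was lost with GC and length offsets (0.03, adjusted p = 0.878) and with the replicate block (-0.72, adjusted p = 0.105). The other members that were lower in DSP-4 mice were *Ndufa1*, *Ndufa3*, *Ndufa7*, *Ndufa11*, *Ndufa13*, *Ndufb2*, *Ndufb6*, *Ndufb9*, *Ndufb10*, *Ndufc1*, *Ndufs6* and the core subunit *Ndufs7*, with log2 fold changes of -0.85 to -0.41. *Ndufb9* shares 19.5% of its exonic length with an annotated gene on the same strand, and *Ndufb6* and *Ndufa13* share 39% and 30% of theirs with a gene on the opposite strand, so that their counts may hold reads of those genes, since the use of strand in counting is not given. *Ndufa11*, *Ndufb4* and *Ndufs6* each have an annotated pseudogene copy with which reads may have been shared.

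Among the members without a call, *Ndufv2*, *Ndufc2*, *Ndufs3* and *Ndufs5* had positive values in both treatments. *Ndufv2*, the other subunit of the NADH-oxidizing core, averaged 508 CPM in DSP-4 TRAP and 426 CPM in DSP-4 input (log2 fold change 0.25, adjusted p = 0.185), and with GC and length offsets it was called lower there (-0.37, adjusted p = 0.059). *Ndufc2*, in the membrane arm, averaged 246 CPM in saline TRAP and 198 CPM in saline input (0.31, adjusted p = 0.246).

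By place in the complex, 16 of the 28 accessory subunits and 1 of the 7 core subunits were lower in TRAP in DSP-4 mice (23.8% of all genes were). There 1 accessory and 1 core subunit were higher (27.3% of all genes were). The medians were -0.47 over the 30 members that are not core and -0.14 over the core. In saline mice 4 accessory and 0 core subunits were lower (15.7% of all genes were), and 1 accessory and 1 core subunit were higher (19.5% of all genes were). These medians were -0.24 and -0.22 in saline mice. The 2305 shortest other genes had a median of -0.39 in DSP-4 mice and -0.30 in saline mice, beside -0.41 and -0.24 over the members. Of these shortest genes 74.4% and 73.7% were negative. Their transcripts reach 1742 bases, against a median of 908 bases over the members, so the set is not matched to the members in length. Whether the members differ from other genes of their length was not tested.

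**Figure D4:**
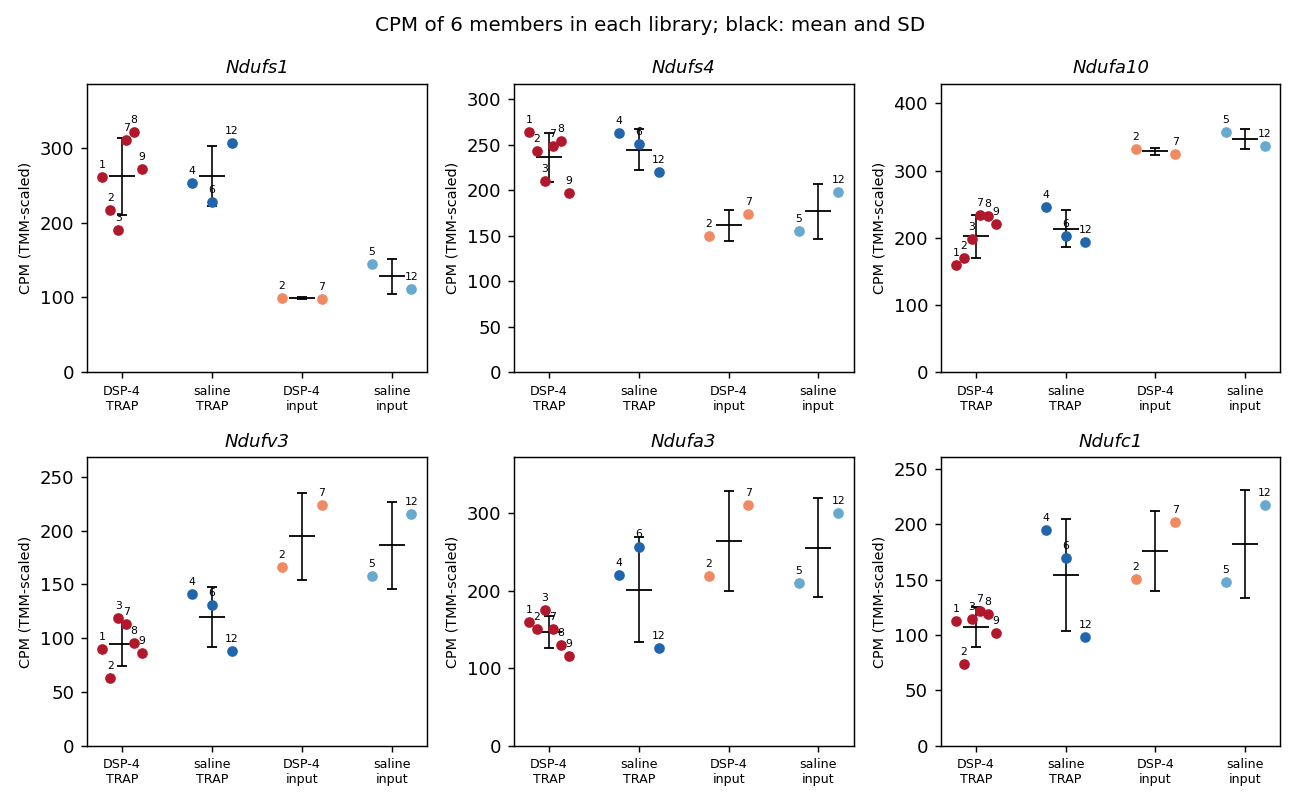
TMM-scaled CPM of 6 members in each library, numbered by replicate, with the mean and SD of each group in black and y axes starting at 0. *Ndufs1* and *Ndufs4* are higher in TRAP than in input, *Ndufa10* and *Ndufv3* lower, and saline TRAP replicate 12 lies with the DSP-4 TRAP libraries for *Ndufa3* and *Ndufc1*.

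These calls moved with the fit. With GC and length offsets, 9 members were higher and 6 lower in DSP-4 mice, where 20% and 19% of all genes were. In saline mice 7 were higher and 1 lower, where 12.8% and 13.2% of all genes were. The medians were then 0.08 and 0.03. *Ndufs7*, *Ndufa11* and *Ndufa13*, lower in DSP-4 mice in the fit without offsets, were then higher, at 0.50 (adjusted p = 0.00479), 0.37 (adjusted p = 0.0326) and 0.45 (adjusted p = 0.0424). By the study's methods TRAP and input of 1 replicate come from 1 homogenate. Libraries were paired here by replicate number, which gives 3 pairs. In the fit with the replicate block as a fixed term, 1 member was higher and 8 were lower in DSP-4 mice (17% and 14.1% of all genes were), and 1 was higher and 0 lower in saline mice (3.61% and 2.27% of all genes were). The one member that passed in saline mice in this fit was *Ndufs1*, so the saline calls given above for the others were lost, *Ndufv3* among them (-1.28, adjusted p = 0.13). When the block was a random effect, in limma, 2 members were higher and 19 lower in DSP-4 mice (27% and 28% of all genes were), and 3 were higher and 6 lower in saline mice (20.6% and 19.3% of all genes were). Without saline TRAP replicate 12, 2 members were higher and 1 lower in saline mice (1730 and 1237 of 12009 genes were). Leaving out DSP-4 input replicate 7 leaves 1 DSP-4 input library. The median in DSP-4 mice was then -0.29, against -0.41 with both, and 25 of the 37 members were negative, against 29. Fewer members were called lower in DSP-4 mice in that fit than with any other single library left out. The calls in DSP-4 mice thus depended on this library, and a fit with 1 input library cannot show how firm they are. Leaving out saline input replicate 12 leaves 1 saline input library, and the median in saline mice was then -0.0249.

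**Figure D5:**
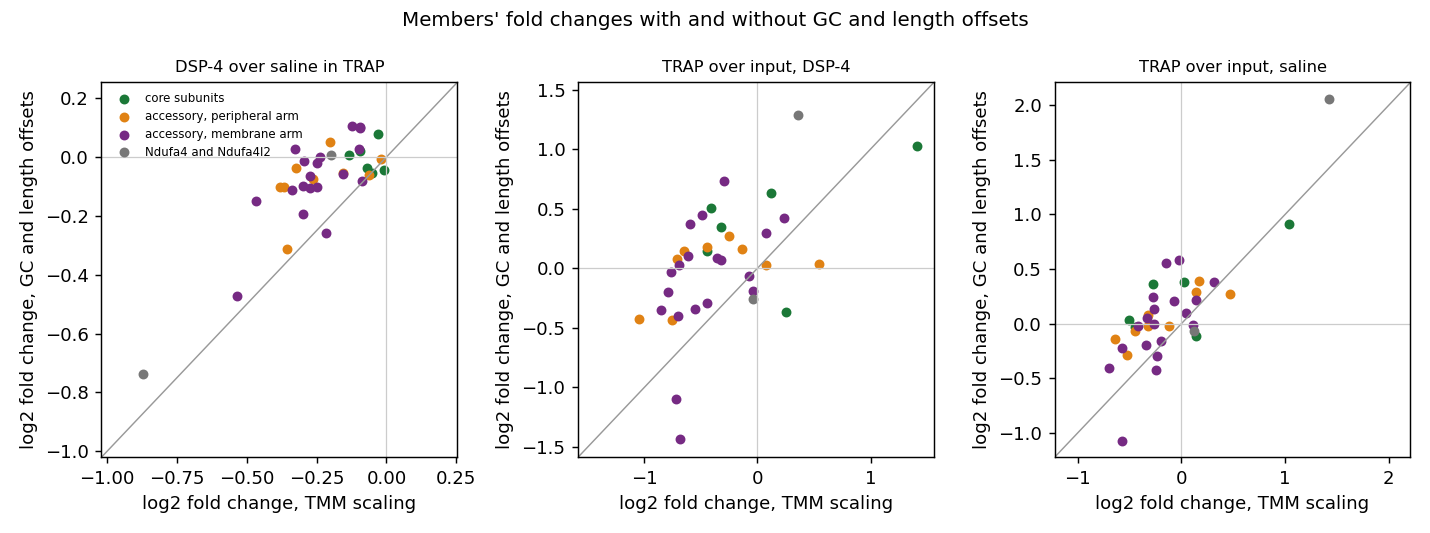
Log2 fold change of 36 of the 37 members in the fit with TMM scaling alone (x axis) and with per-library GC and length offsets (y axis), for DSP-4 over saline in TRAP (left), TRAP over input in DSP-4 mice (middle) and in saline mice (right), with the line of equality in grey. Most points lie above the line, and the medians over all 37 members move to -0.05, 0.08 and 0.03.

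In input, DSP-4 was compared with saline to see whether complex I transcripts of the whole hindbrain moved. None of the 37 members passed the FDR, as was true of all genes, none had an unadjusted p under 0.05, and 20 of the 37 had a negative log2 fold change (54.1% of all genes did). DESeq2 and limma called 0 members as well. The median was -0.03 over the members and -0.03 over all genes. The smallest p was that of *Ndufs1*, with 99.7 and 97.7 CPM in DSP-4 input against 145 and 112 CPM in saline input (log2 fold change -0.38, SE 0.24, unadjusted p = 0.14). *Ndufv1*, *Ndufv2* and *Ndufs3* followed at -0.26, -0.15 and -0.12, and the positive values with the smallest p were those of *Ndufb9* (0.11), *Ndufb10* (0.09), *Ndufa12* (0.09) and *Ndufa4l2* (0.20). With 2 libraries in each group the direction of the members turned on single libraries, since 8 to 36 of the 37 were negative when 1 input library was left out.

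The difference between the TRAP over input fold changes of DSP-4 and saline mice was tested as an interaction. None of the 37 members passed the FDR in edgeR, DESeq2 or limma, and in edgeR none had an unadjusted p under 0.05. A negative value, meaning a lower TRAP over input ratio in DSP-4 mice, was found for 29 of the 37 (46.2% of all genes), with a median of -0.22 over the members and 0.03 over all genes. The smallest p in the negative direction belonged to *Ndufa4l2* (-1.06, SE 0.68), *Ndufa2* (-0.42, SE 0.29), *Ndufb8* (-0.37, SE 0.26) and *Ndufa3* (-0.50, SE 0.36), and in the positive direction to *Ndufs1* (0.37, SE 0.30), *Ndufv1* (0.19, SE 0.34), *Ndufa9* (0.20, SE 0.38) and *Ndufv2* (0.11, SE 0.22). The median was 0.17 with the replicate block as a fixed term and 5 of the 37 were negative, and with the block as a random effect the median was -0.17 and 29 were negative. The saline side of the fixed-block fit rests on 1 pair, which includes saline TRAP replicate 12.

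*Ndufa4* encodes a protein now placed in cytochrome c oxidase (complex IV), and *Ndufa4l2* its paralog, which is induced by hypoxia in several cell types. *Ndufa4* was the most abundant member, with 678 ± 105 CPM in DSP-4 TRAP (SD, n = 6) and 771 ± 135 CPM in saline TRAP (SD, n = 3), and did not pass in any comparison. *Ndufa4l2* had 2.67, 8.13 and 16.9 CPM as the lowest, median and highest in DSP-4 TRAP, against 15.4, 13.9 and 16.5 CPM in saline TRAP replicates 4, 6 and 12. In DSP-4 TRAP 5 of 6 libraries lay below all saline TRAP libraries and 1, replicate 1, lay above them. Its log2 fold change for DSP-4 over saline was -0.87 (SE 0.41, unadjusted p = 0.0496). In saline mice it was higher in TRAP than in input, where it had 5.79 and 5.62 CPM (log2 fold change 1.42, SE 0.53, adjusted p = 0.0603), and in DSP-4 mice the value was 0.36 (adjusted p = 0.557), or 1.29 (adjusted p = 0.0697) with GC and length offsets. The difference of these fold changes is the interaction given above, which did not pass.

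Other genes of complex I and of the respiratory chain were taken from lists. Of 14 assembly factors, which build the complex without remaining in it, 0 passed for DSP-4 over saline in TRAP, with a median of -0.07. In TRAP over input 1 was higher and 3 were lower in DSP-4 mice, and 0 were higher and 2 were lower in saline mice, against the shares of all genes given above (27.3% and 23.8% in DSP-4 mice, 19.5% and 15.7% in saline mice). *Acad9*, an assembly factor related to acyl-CoA dehydrogenases, was the one that was higher in DSP-4 mice (0.56, adjusted p = 0.0457), and *Tmem186* (-0.69, adjusted p = 0.00535, in DSP-4 mice and -0.91, adjusted p = 0.00416, in saline mice) and *Ndufaf3* (-0.82, adjusted p = 0.00509, in DSP-4 mice and -0.75, adjusted p = 0.0298, in saline mice) were lower in both. *Acad9* (0.28, adjusted p = 0.278) and *Ndufaf3* (-0.18, adjusted p = 0.549, in DSP-4 mice and -0.25, adjusted p = 0.503, in saline mice) did not pass with GC and length offsets, and *Acad9* (0.57, adjusted p = 0.214) and *Tmem186* (-0.74, adjusted p = 0.13, in DSP-4 mice and -0.66, adjusted p = 0.459, in saline mice) did not pass with the replicate block. The 7 mitochondrially encoded ND subunits are translated on mitochondrial and not on tagged ribosomes. In DSP-4 mice 7 of 7 passed as lower in TRAP (median -2.44, 23.8% of all genes passed as lower). In saline mice all 7 were negative (median -2.17) and 6 passed (15.7% of all genes passed as lower). For DSP-4 over saline in TRAP they had a median of -0.52 and 0 passed.

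The nuclear subunits of complexes II to V (39 genes) had a median of -0.21 for DSP-4 over saline in TRAP, with 32 of 39 negative and 0 past the FDR. Complex II, whose 4 subunits include the succinate-oxidizing flavoprotein *Sdha*, had a median of 0.04 and 1 of 4 negative. Complex III had a median of -0.24, complex IV -0.33 with 10 of 10 negative, and complex V -0.19. *Uqcr11*, a small subunit of complex III, had the smallest p of these lists (-0.57, SE 0.17, unadjusted p = 0.00437). In DSP-4 mice 3 of the 39 were higher in TRAP than in input, among them *Atp5f1*, the peripheral stalk subunit of ATP synthase (0.86, adjusted p = 0.000267), and 15 were lower, among them *Cox6a1* of complex IV (-1.23, adjusted p = 0.000502), against 27.3% and 23.8% of all genes. *Cox6a1* did not pass with GC and length offsets (-0.25, adjusted p = 0.284). In saline mice 1 was higher, *Atp5f1* (0.54, adjusted p = 0.0202, and 0.54, adjusted p = 0.509, with the replicate block), and 4 were lower (19.5% and 15.7% of all genes were). *Ndufab1*, the subunit left out by its symbol, had a log2 fold change of -0.13 for DSP-4 over saline in TRAP and passed in no comparison.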

How the data were processed

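RNA from TRAP and input of hindbrain was sequenced in 13 libraries. Alignment was done by the authors with STAR (build mm10) and counting with featureCounts, and counts for 12009 genes were deposited. The title of the deposited table calls them filtered and normalized, but the values are whole numbers whose totals differ between libraries, so they were treated as counts not yet normalized. Genes with few counts are absent (lowest mean count 78.4), and edgeR's filter removed none further. For both tools the versions, and for counting the strand setting, were not given in the sources used here. The study removed 2 saline samples in which TRAP enrichment of *Slc6a2* did not reach its threshold. Its 6 replicates per treatment less these 2 would leave 4 saline TRAP samples, where 3 are labelled here, and the sources used here do not settle this. No column of other samples was present (0 unused).

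Members were chosen by symbol. The members and lists were chosen with earlier results of these data known. Counts were scaled by TMM and tested with edgeR 4.0.16 (quasi-likelihood, two-sided, Benjamini-Hochberg adjustment over 12009 genes, FDR 0.1) in R 4.3.3. TRAP libraries alone entered DSP-4 over saline in TRAP, and all 13 entered the other comparisons. Named are the core subunits (1 member is counted in every list and median but not reported here by itself), *Ndufa4*, *Ndufa4l2*, the 4 members with the smallest p in each direction of a comparison, and up to 4 genes of each related list. The other members that passed in DSP-4 mice, *Ndufc2* for its level and *Ndufab1* were named after their values were seen. Lengths and GC content came from principal transcripts of a GRCm38 annotation. *Ndufb2* has a long principal transcript (4371 bases), on which its values per kilobase and with GC and length offsets depend.

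By the study's methods TRAP and input of 1 replicate came from 1 homogenate, and libraries were paired here by replicate number. The deviations of TRAP and input from their groups were correlated over all genes, with r of 0.18, 0.27 and 0.30 in the 3 pairs. Over the members alone r was -0.08, -0.24 and -0.77. These values cannot decide the pairing, because no unmatched libraries were correlated for comparison. Each input group also holds 2 libraries, whose deviations mirror each other. Alternatives were DESeq2 1.42.0, limma 3.58.1, other scalings, GC and length offsets, the replicate block as a fixed or a random effect, and leaving out libraries. The functions were tested on simulated data. Each replicate is a pool of 2 mice, and p-values measure the spread between such pools.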

Additional observations from a re-analysis of the deposited data

Results flagged for a closer look

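Among the 41 sets of 6 values examined over the DSP-4 TRAP libraries (37 members and 4 scores), 1 held a value far from the rest. *Ndufa1*, a small X-linked subunit of the membrane arm, had 85.28 CPM in DSP-4 TRAP replicate 9, against 108 to 121 CPM in the other 5 libraries of the group. Chance gives about 1 such value in 20 sets.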

How the results depend on the processing

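Results were recomputed under 17 to 23 alternatives in each comparison. The counts of members called for DSP-4 over saline in TRAP, in input and for the interaction were 0 throughout. The median for DSP-4 over saline in TRAP was -0.0542 with GC and length offsets and ran from -0.35 to -0.0819 with 1 library left out. Counts of calls moved for TRAP over input. In saline mice, 7 members were higher and 1 lower with GC and length offsets (median 0.03), 1 and 0 with the replicate block (median -0.57), and 0 and 0 with both (median -0.027). In these mice library totals alone left 2 lower. In DSP-4 mice, 9 were higher and 6 lower with GC and length offsets (median 0.08, 14 negative), and 1 and 8 with the replicate block. With both, 3 were higher and 2 lower in DSP-4 mice (median -0.0043), where 1124 and 1341 of 12009 genes were. With 1 library left out, 1 to 3 members were higher and 1 to 6 lower in saline mice (median -0.36 to -0.0249), and 1 to 2 higher and 4 to 18 lower in DSP-4 mice. In input the median then ran from -0.16 to 0.12 and 8 to 36 members were negative, and the interaction median ran from -0.36 to -0.0611. The interaction median was -0.0254 with GC and length offsets, 0.17 with the replicate block (5 negative) and 0.0588 with both (13 negative), and -0.17 with the block as a random effect (29 negative). Core minus other members was 0.02 for TRAP over input in saline mice, against 0.18 with GC and length offsets, 0.54 with the block and 0.38 with both, and -0.21 to 0.20 with 1 library left out. For DSP-4 mice it was 0.33 and ran from 0.14 to 0.52. For the interaction it was 0.37, against -0.0585 with the block and -0.0512 with both, and ran from 0.19 to 0.51. The causes of these shifts were not tested.

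No paired analysis was possible because the DSP-4 and saline groups share no replicate number, for the comparisons of DSP-4 with saline. The block in saline mice rests on 1 pair and that in DSP-4 mice on 2, which limits the precision of both.

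The log2 fold change of a named gene changed sign in the following cases. Over all alternatives the sign of 18 of 37 members changed at least once for DSP-4 over saline in TRAP, of 23 and 22 for TRAP over input in saline and DSP-4 mice, of 30 in input and of 33 for the interaction. In the comparison of DSP-4 with saline in TRAP, with GC and length offsets, *Ndufa4* was 0.00537, *Ndufs3* 0.0769, *Ndufs7* 0.00708 and *Ndufs8* 0.021. With library totals alone, *Ndufs1* was 0.024 and *Ndufs3* 0.00642. Without DSP-4 TRAP replicates 2 and 3, *Ndufs1* was 0.15, *Ndufs8* 0.0983, *Ndufv1* 0.0888 and *Ndufv2* 0.00507. With 1 library left out at a time, *Ndufs1* ran from -0.0941 to 0.13, *Ndufs3* -0.0757 to 0.0231, *Ndufs8* -0.28 to 0.18, *Ndufv1* -0.18 to 0.0502 and *Ndufv2* -0.13 to 0.0472. For TRAP over input in saline mice, with GC and length offsets, *Ndufa4* was -0.0714, *Ndufs7* 0.36, *Ndufv1* 0.0346 and *Ndufv2* -0.11. With the replicate block, *Ndufa4* was -0.29, *Ndufs3* -0.0124 and *Ndufv2* -0.0643. With the replicate block together with GC and length offsets, *Ndufa4* was -0.0898, *Ndufs4* -0.0581, *Ndufs7* 0.48, *Ndufs8* 0.0968, *Ndufv1* 0.22 and *Ndufv2* -0.35. With 1 library left out at a time, *Ndufa4* ran from -0.0236 to 0.27 and *Ndufs3* -0.0205 to 0.0549. For TRAP over input in DSP-4 mice, with GC and length offsets, *Ndufa11* was 0.37, *Ndufa13* 0.45, *Ndufa7* 0.15, *Ndufb10* 0.10, *Ndufb8* 0.0295, *Ndufs6* 0.0761, *Ndufs7* 0.50, *Ndufs8* 0.15, *Ndufv1* 0.35 and *Ndufv2* -0.37. With library totals alone, *Ndufa4* was 0.0331. With the replicate block together with GC and length offsets, *Ndufa11* was 0.39, *Ndufa13* 0.34, *Ndufb10* 0.26, *Ndufs6* 0.17, *Ndufs7* 0.50, *Ndufv1* 0.19 and *Ndufv2* -0.24. With 1 library left out at a time, *Ndufa4* ran from -0.19 to 0.11 and *Ndufab1* -0.55 to 0.022. In input, with GC and length offsets, *Ndufa4* was 0.19, *Ndufb10* -0.043, *Ndufb9* -0.0205, *Ndufs7* -0.14 and *Ndufv2* 0.20. With 1 library left out at a time, *Ndufa12* ran from -0.15 to 0.31, *Ndufa4* -0.18 to 0.12, *Ndufb10* -0.0141 to 0.20, *Ndufb9* -0.0828 to 0.29, *Ndufs7* -0.0508 to 0.087 and *Ndufs8* -0.19 to 0.0242. For the interaction, with DESeq2, *Ndufs8* was 0.00131. With DESeq2 size factors in edgeR, *Ndufs8* was 0.0012. With GC and length offsets, *Ndufs7* was 0.14, *Ndufs8* 0.18 and *Ndufv2* -0.26. With the replicate block, *Ndufa2* was 0.23, *Ndufa3* 0.46, *Ndufa4* 0.18, *Ndufa9* -0.15, *Ndufb8* 0.0101, *Ndufs1* -0.0666 and *Ndufs7* 0.17. With the replicate block together with GC and length offsets, *Ndufa2* was 0.082, *Ndufa3* 0.29, *Ndufa9* -0.22, *Ndufs1* -0.15, *Ndufs7* 0.0108 and *Ndufv1* -0.0314. Without DSP-4 TRAP replicates 2 and 3, *Ndufs8* was 0.19. With 1 library left out at a time, *Ndufa4* ran from -0.31 to 2.12e-05 and *Ndufs8* -0.20 to 0.27.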
